A study of Rattus norvegicus with 8 samples.

Results

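The NR4A receptors Nr4a1 (Nur77), Nr4a2 (Nurr1) and Nr4a3 (Nor-1) are a small family of orphan nuclear receptors. They were followed in the soleus, the slow postural muscle of the rat calf, through every probe set of the array whose only gene symbol was one of these 3. The 3 genes, of 4736 named on the array, were represented by 7 of its 8740 probe sets, 2 for Nr4a1, 2 for Nr4a2 and 3 for Nr4a3, and each is reported apart. The members were chosen by gene name and not by their values.

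The walked group had 2 arrays, from rats kept off their hindlimbs for 12 h and then walked on a treadmill for 2 h in all, in bouts of 30 min that alternated with 30 min of cage activity over 4 h. The unloaded group had 3 arrays, from rats kept off their hindlimbs for 12 h with no walking. The control group had 3 arrays, from rats that stood and moved normally in their cages for 12 h. Walked rats alone had the further 4 h, and no group was reloaded without the treadmill. Treadmill walking, cage activity after unloading and the later sampling therefore cannot be told apart. All rats were female, and neither strain nor age was stated in the labels. Each array carried RNA pooled from 8 to 10 rats, so the p-values measure the spread between pools and not between rats. Values are MAS5 signals, in which a mismatch or background estimate has been subtracted, so signals near the lowest decile of the array (4.10) carry little information.

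NR4A proteins have no classical hormone ligand, so their activity is set largely by how much of them is made. They are immediate early genes, switched on within minutes to hours by cAMP, calcium and growth factor signals, and in skeletal muscle by exercise and adrenergic stimulation. Each binds as a monomer to a DNA element called the NBRE, and Nr4a1 and Nr4a2 also pair with the retinoid X receptors (RXR). In mouse muscle Nr4a1 and Nr4a3 are known to regulate genes of glucose and fatty acid use.

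In rat assembly GRCr8 Nr4a1 lies on chromosome 7 from 134247153 to 134268044, Nr4a2 on chromosome 3 from 62098739 to 62115926 and Nr4a3 on chromosome 5 from 67157141 to 67198287. RefSeq promoter sequences, 250 bases before to 50 after an annotated start, were at hand for Nr4a1 and Nr4a2. They are shown because they were the ones at hand, and none was available for Nr4a3. A link between their motifs and the signals was not tested. Capitals mark the core of the cAMP response element, TGACG, or CGTCA where it reads on the opposite strand. Both windows run 5′ to 3′ along the gene and lie inside the annotated gene span, so other annotated starts exist upstream.

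Nr4a1, chr7:134259888-134260187, plus strand: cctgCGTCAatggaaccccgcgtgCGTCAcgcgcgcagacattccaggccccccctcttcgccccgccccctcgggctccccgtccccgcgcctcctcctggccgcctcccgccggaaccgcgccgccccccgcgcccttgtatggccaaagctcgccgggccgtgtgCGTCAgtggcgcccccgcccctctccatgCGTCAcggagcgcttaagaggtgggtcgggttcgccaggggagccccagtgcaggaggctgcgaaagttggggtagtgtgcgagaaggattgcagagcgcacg
Nr4a2, chr3:62104838-62105137, minus strand: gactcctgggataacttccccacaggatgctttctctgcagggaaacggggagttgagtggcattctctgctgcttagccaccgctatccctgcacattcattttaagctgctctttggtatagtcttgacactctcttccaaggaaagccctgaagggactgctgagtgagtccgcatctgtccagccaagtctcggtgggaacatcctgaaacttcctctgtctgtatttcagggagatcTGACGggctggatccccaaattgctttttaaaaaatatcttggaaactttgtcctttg

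The Nr4a1 window held 4 cores, beginning at -246, -226, -82 and -53 from the start, and every one read TGACGCA on the opposite strand. The Nr4a2 window held 1, at -8. Among 33469 RefSeq promoter windows of the same length, 21.2% held at least 1 core on either strand and 0.236% held 4 or more. The Nr4a1 window was rich in G and C (72.3%, against 48.7% in the Nr4a2 window and a median of 51.7% over all windows). Among the 2769 windows of at least 70% G and C, 0.361% held 4 or more. Neither window held the full element TGACGTCA (found in 1.83% of all windows, each counted among those with a core), the NBRE AAAGGTCA (1.43%), the CArG box of serum response factor (1.64%) or the MEF2 box (0.565%). A match of letters is a description and does not show that a factor binds there.

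Across all arrays the median signal lay between 37.1 and 42.4, and correlations of log2 signal over tested probe sets were 0.949 to 0.963 within groups and 0.913 to 0.945 between groups. Control pool 3 had the lowest mean correlation with the other arrays, 0.928 against 0.934 to 0.943. All 7 slow fibre markers on the array, among them the slow myosin Myh7 and troponin Tnni1, passed the filter on dim probe sets. Of the 7, Ckm, Tnni1, Myl2 and Myl3 were called higher in walked than in control pools. There Tpm3 had -0.47 and no call on the probe set that stood for it. On another of its probe sets, L24776_at, it was called lower there (-1.71, limma adjusted p = 0.0358). The list's single call in unloaded against control pools was lower Tpm3 (-0.95, limma adjusted p = 0.00594), on 1 of its 4 probe sets. The summed signal of the 7 was 30676 to 34104 in walked pools and 23853 to 33226 in unloaded pools, against 20835 to 23492 in control pools. Macrophages, in which NR4A genes are also inducible, were represented by 5 markers with a summed signal of 410.1 to 417.6 in walked pools and 409.2 to 475.3 in unloaded pools, against 481.4 to 601.7 in control pools. Of these, Csf1r and Itgam were below the filter. Cd74 was lower in walked than in control pools on 1 of its 4 probe sets (-0.65, limma adjusted p = 0.0334), and Cd14 had 0.21 there with no call. Among markers of endothelium, smooth muscle, adipocytes, nerve, red cells and fibroblasts, with 1 probe set a gene, the single call in walked against unloaded pools was lower Prx (-1.23). On probe sets that did not stand for their gene, Dcn (-1.19) and Col1a1 (-0.94) were also called lower there. In unloaded against control pools, where Nr4a1 fell, the smooth muscle gene Tagln was lower (-0.96, limma adjusted p = 0.0223). It was called lower on M83107_at too (-1.13, limma adjusted p = 0.00988). Acta2, also of smooth muscle, was called lower there on X06801cds_i_at (-2.42, limma adjusted p = 0.0278). It was not called on X06801cds_f_at (-0.64) or rc_AA900769_s_at (-0.43). The adipocyte marker Fabp4 (1.52) and the fibroblast markers Dcn (1.83) and Lum (0.82) were higher there (limma adjusted p = 0.000982, 0.000123 and 0.0264). Dcn was also higher in walked than in control pools on the probe set that stood for it (1.51) and on Z12298cds_s_at (2.45). It was not called there on rc_AI639233_s_at (0.33) or X59859_r_at (0.27). The part of any marker list in the NR4A results was not tested. In whole muscle, a change in the number of cells of a type and a change in RNA per cell cannot be told apart.

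**Figure D1:**
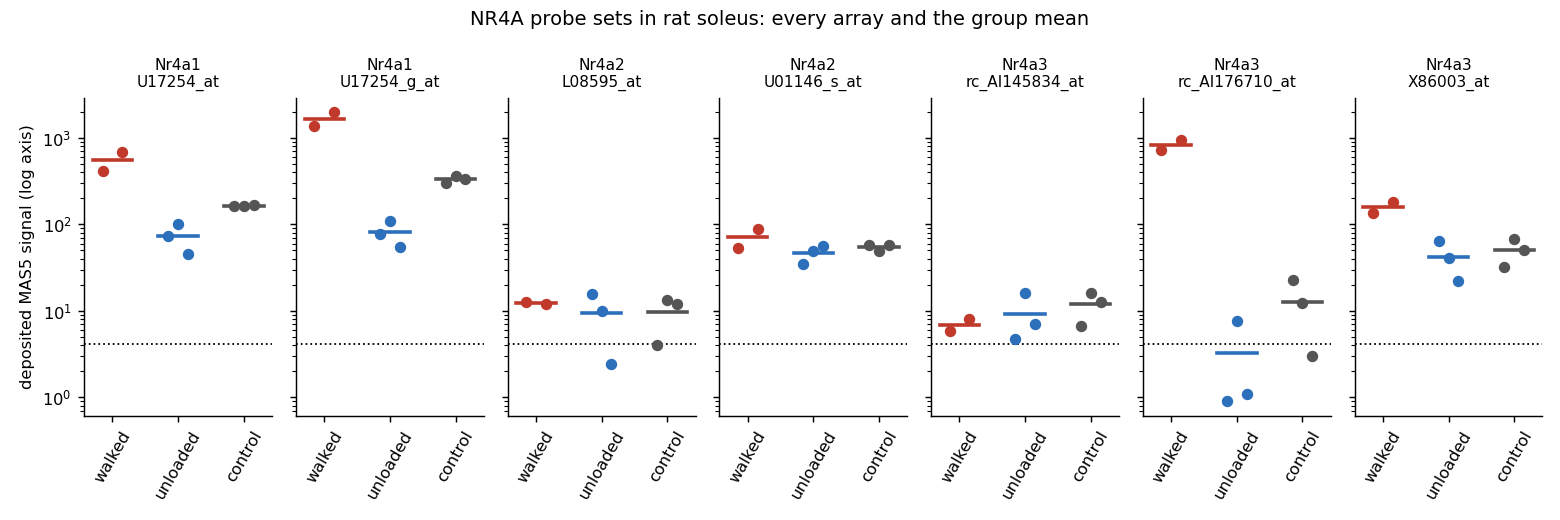
Deposited MAS5 signal (log axis) of the 7 NR4A probe sets on every array; points are pools, bars are group means over 2 walked, 3 unloaded and 3 control pools, and the dotted line is the floor of 4.10 used before log2. Both Nr4a1 probe sets and 2 of the 3 for Nr4a3 were highest on both walked arrays, and both Nr4a1 probe sets were lowest on the 3 unloaded arrays.

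Of the 7 probe sets, 5 passed the filter on mean signal over all arrays (25.8) and were tested with all 5244 that passed: both for Nr4a1, U01146_s_at for Nr4a2, and rc_AI176710_at and X86003_at for Nr4a3. The Nr4a3 probe set rc_AI176710_at passed only through its walked arrays, since its mean over the other 6 was 7.96, so it was bound to differ and is described rather than counted as support. L08595_at for Nr4a2 and rc_AI145834_at for Nr4a3 did not pass. A probe set is said to rise or fall where limma's p, adjusted by Benjamini-Hochberg over the 5244, was under 0.05. The exact permutation test over arrays cannot give less than 0.1 for a single probe set with these group sizes, so a call rests on the spread pooled across probe sets.

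Nr4a1 responded in both directions. It fell in unloaded muscle, and it rose after walking to a level above that of control muscle, on both of its probe sets. The probe set U17254_g_at had signals of 1361.3 and 1980.4 in walked pools and of 78.4, 109.8 and 54.2 in unloaded pools, against 302.1, 366.4 and 333.6 in control pools. No pool of one group overlapped with a pool of another. The lowest walked pool was 12.4 times the highest unloaded pool and 3.72 times the highest control pool, and the lowest control pool was 2.75 times the highest unloaded pool.

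After walking, U17254_g_at averaged 1671 ± 438 (SD, n = 2), against 80.8 ± 27.9 in unloaded pools (SD, n = 3), a log2 fold change of 4.41 ± 0.27 (SE), or 21.2-fold (limma adjusted p = 2.84e-06). In unloaded pools, against 334 ± 32.2 in control pools (SD, n = 3), the log2 fold change was -2.10 ± 0.24, or 4.29-fold lower (limma adjusted p = 0.000388). Walked against control pools gave 2.30 ± 0.27, or 4.94-fold higher (limma adjusted p = 0.000613). By the size of its fold change this probe set stood at rank 5 of 5244 in walked against unloaded pools, at rank 28 in unloaded against control pools and at rank 26 in walked against control pools. Each of these calls held in every fit that left out 1 array.

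The other Nr4a1 probe set, U17254_at, was made from the same source sequence and is not an independent measurement of the gene. Its signals were 410.1 and 694.4 in walked pools and 74.2, 100.2 and 45.8 in unloaded pools, against 165.3, 163.7 and 167.6 in control pools. The groups again did not overlap, in the same order. The log2 fold change was 2.94 ± 0.31 in walked against unloaded pools (limma adjusted p = 0.000142), -1.24 ± 0.27 in unloaded against control pools (limma adjusted p = 0.0182) and 1.69 ± 0.31 in walked against control pools (limma adjusted p = 0.00833). These changes were smaller than those of U17254_g_at in each comparison, a difference that was not tested.

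The fall of U17254_at in unloaded pools was no longer called without control pool 1 (limma adjusted p = 0.0502) or unloaded pool 1 (0.0537), and its rise over control pools was no longer called without walked pool 2 (0.102). The directions stayed the same in those fits, with values of -1.25, -1.29 and 1.31.

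Nr4a3 rose after walking on X86003_at, a call that was lost without either walked pool. A second probe set was bright on the walked arrays alone, and the remaining one was dim on every array. In unloaded muscle no change was called on X86003_at. The probe set rc_AI176710_at had signals of 719.1 and 949.0 in walked pools and of 0.9, 7.7 and 1.1 in unloaded pools, against 22.8, 12.3 and 3.0 in control pools. In 2 unloaded pools and 1 control pool it was under the floor of 4.10, so no exact fold change can be given.

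The lowest walked signal of rc_AI176710_at was 93.4 times the highest unloaded signal and 31.5 times the highest control signal. The fitted log2 value in walked against unloaded pools was 7.35 with the floor, 5.47 with a pseudocount of 16 in its place and 8.66 with no floor, and it is given as a description with no test. In unloaded against control pools the log2 value with the floor was -1.05, also given as a description with no test, and the 2 groups overlapped. That value was -0.49 without control pool 1, -1.73 without control pool 3 and -2.21 with no floor.

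X86003_at measured Nr4a3 at signals of 136.9 and 181.1 in walked pools and of 63.8, 40.5 and 21.9 in unloaded pools, against 32.2, 68.7 and 50.7 in control pools. Both walked pools were above every other pool, while unloaded and control pools overlapped. The mean was 159 ± 31.3 in walked pools (SD, n = 2), against 42.1 ± 21.0 in unloaded pools (SD, n = 3), a log2 fold change of 2.04 ± 0.43, or 4.11-fold (limma adjusted p = 0.0215). Against control pools, at 50.5 ± 18.3 (SD, n = 3), it was 1.71 ± 0.43, or 3.27-fold (limma adjusted p = 0.0345).

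X86003_at had, in unloaded against control pools, a log2 fold change of -0.33 (95% interval -1.17 to 0.52; limma adjusted p = 0.688), and of 0.077 without unloaded pool 3. Its rise over unloaded pools lost the call without unloaded pool 2 (limma adjusted p = 0.0562), walked pool 1 (0.0904) or walked pool 2 (0.191). Its rise over control pools lost the call without control pool 1 (0.072), control pool 3 (0.0604), walked pool 1 (0.109) or walked pool 2 (0.214). The directions of both rises were the same in every fit without 1 array, at 1.63 to 2.40 over unloaded and 1.42 to 1.96 over control pools.

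The remaining Nr4a3 probe set, rc_AI145834_at, did not show the high walked signal of the other 2. It had signals of 5.8 and 8.0 in walked pools and of 4.7, 16 and 7.0 in unloaded pools, against 6.7, 16.2 and 12.8 in control pools. All 8 values lay near the floor and the groups overlapped, so the probe set gave no measurable level under any condition, including the walked pools in which rc_AI176710_at was bright. With no filter its log2 fold change in walked against unloaded pools was -0.24 ± 0.59 (limma adjusted p = 0.932).

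Nr4a2 passed the test in no comparison. U01146_s_at, a probe set whose name marks it as able to match several transcripts, had signals of 53.4 and 88.2 in walked pools and of 35, 49.5 and 56.6 in unloaded pools, against 58.4, 49.6 and 58.4 in control pools. The groups overlapped, and the highest value was in walked pool 2. The log2 fold change was 0.58 in walked against unloaded pools (95% interval -0.08 to 1.23; limma adjusted p = 0.359), -0.26 in unloaded against control pools (-0.85 to 0.33; 0.634) and 0.31 in walked against control pools (-0.34 to 0.97; 0.567). The interval in walked against unloaded pools reaches 1.23, so a Nr4a2 level without change was not shown.

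The result of U01146_s_at leaned on walked pool 2, without which the values were 0.21 in walked against unloaded pools and -0.049 in walked against control pools. L08595_at, the other Nr4a2 probe set, had 12.6 and 12.1 in walked pools and 15.8, 10.0 and 2.4 in unloaded pools, against 4.0, 13.3 and 12.1 in control pools. It was dim on every array and its groups overlapped in every comparison.

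**Figure D2:**
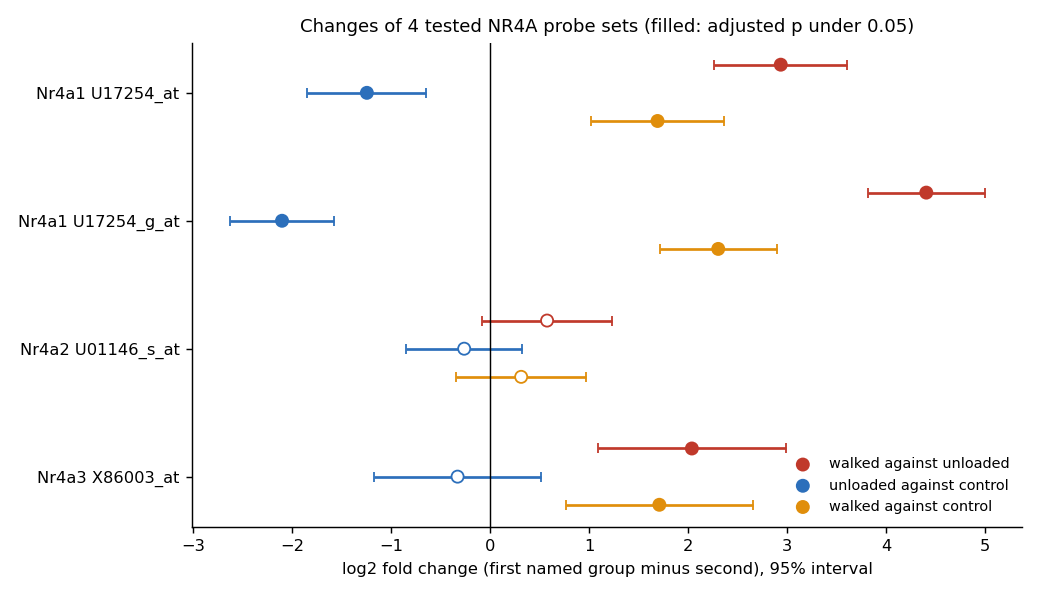
Log2 fold change of 4 tested NR4A probe sets, leaving aside rc_AI176710_at (x axis, first named group minus the second) with 95% intervals from limma, for walked against unloaded, unloaded against control and walked against control; filled points had an adjusted p under 0.05. Nr4a1 is filled on both sides of 0, X86003_at of Nr4a3 is filled only in the comparisons with walked pools, and U01146_s_at for Nr4a2 has intervals that include 0 throughout.

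By gene, the order of levels was walked, control, unloaded for Nr4a1, with each neighbouring pair apart by the test on both probe sets. On X86003_at of Nr4a3 walked stood above both other groups by the test, and control and unloaded pools did not differ beyond their spread. For Nr4a2 no group differed from another beyond its spread.

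Set against the whole array, 2.73% of tested probe sets were called higher in walked than in unloaded pools, and 13.5% were higher without overlap between the groups. The other 4 tested NR4A probe sets, leaving aside rc_AI176710_at, would have passed the filter without the walked arrays, with means of 46.3 to 207 over the other 6. Of these 4, 3 were called higher, all 3 without overlap. In unloaded against control pools 3.32% of tested probe sets were called lower, and 16.1% were lower without overlap. Of the 4, the 2 for Nr4a1 were called lower, both without overlap. In walked against control pools 4.46% were called higher, and 15.5% were higher without overlap. Here 3 of the 4 were called higher, all without overlap. With 3 genes these counts describe the members and carry no test of the family. The comparisons share arrays in pairs, so they are not independent of one another.

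Early genes, upstream signalling genes, other nuclear receptors and metabolic genes were taken from lists chosen with earlier results of these data known, with 1 probe set per gene. The activity of cAMP or CREB was not measured, and a shared way of induction was not tested. Of 3154 genes tested, 74 were called higher and 55 lower in walked against unloaded pools, with a median log2 fold change of -0.05. On probe sets, 1.47% were called lower there. In unloaded against control pools 117 genes were higher and 79 lower (3.99% of probe sets higher), with a median of -0.08. In walked against control pools 118 genes were higher and 146 lower (4.61% of probe sets lower), with a median of -0.11.

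Early genes that respond to the transcription factor CREB mostly rose after walking. Of 11 tested, 6 rose and 1 fell in walked against unloaded pools, with a median log2 fold change of 1.33. The rises were in the stress factor Atf3 (4.12 ± 0.23), the MAP kinase phosphatase Dusp1 (2.39 ± 0.22), the zinc finger factor Egr1 (1.95 ± 0.19), the CREB relative Crem (1.86 ± 0.20), and the AP-1 subunits Fos (1.70 ± 0.30) and Junb (1.33 ± 0.22). The fall was in the cAMP phosphodiesterase Pde4b (-0.89), named after its value was seen to complete the count. Atf3, Dusp1, Egr1 and Crem kept these calls in every fit without 1 array, whereas Fos lost it without either walked pool, Junb without walked pool 2, and Pde4b without unloaded pool 2 or 3 or either walked pool. Egr1 was not called on 2 of its 4 probe sets, with 0.15 and 0.57, nor was Pde4b on 2 of its 3, with -1.01 and 0.28. Irs2, an adaptor of the insulin receptor, was not called on the probe set that stood for it (0.58) but was on another of its 3, AF083418_at (3.64, limma adjusted p = 0.00291).

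In unloaded against control pools 4 of the 11 fell and 2 rose, with a median of -0.48. Dusp1 (-1.65), Atf3 (-1.46), Egr1 (-1.14) and Junb (-0.76) fell, as Nr4a1 did. Dusp1 was called lower on all 3 of its probe sets, but 2 of the 4 for Egr1 were not called (-0.21 and 0.10), nor was the other for Junb (-0.45). Fos and Crem were not called on the probe sets that stood for them (-0.77 and -0.48), and each was called lower on another (-1.02 and -1.22). The phosphodiesterases Pde4d (1.38) and Pde4b (0.67), enzymes that break down cAMP, rose, Pde4b on 1 of its 3 probe sets. The Junb fall was kept without control pool 1 or unloaded pool 3 only, among fits without 1 array, and the Pde4b rise without control pool 2 only. In walked against control pools 4 were higher and none lower at the adjusted threshold (limma; none lower unadjusted either), with a median of 0.75: Atf3 (2.67), Crem (1.39), Pde4d (1.34) and Egr1 (0.81). On probe sets that did not stand for their gene, Dusp1 (1.17 and 1.08), Irs2 (2.66), Cebpb (0.91) and Junb (0.90) were also called higher there, where Dusp1 had 0.75 on the one that did (limma adjusted p = 0.0542). Pde4d lost its call in this comparison without walked pool 2, and Egr1 without control pool 1 or 3 or either walked pool.

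The signalling machinery upstream held 1 or 2 calls a comparison, against a background of 74 higher and 55 lower of 3154 genes in walked against unloaded pools. Of 16 tested genes of cAMP, calcium and MEF2 signalling, 1 rose and 0 fell in walked against unloaded pools, and that was Crem (limma; 3 higher and 1 lower at an unadjusted p under 0.05; median 0.08). Crem stands on both lists, and the same values are counted among the CREB-responsive early genes above. Creb1 itself had 0.24, the catalytic kinase subunit Prkaca 0.26, the calcineurin subunit Ppp3ca -0.13 and Mef2d 0.33, and none of them was called. In unloaded against control pools the list again held 1 rise and 0 falls (limma; 3 higher and 1 lower unadjusted; median -0.01), in the calmodulin gene Calm2 (0.93 ± 0.17), beside 117 higher and 79 lower of 3154. Calm2 was higher in walked than in control pools too (1.38 ± 0.19), and with Crem (1.39) it made up the 2 calls of the list there.

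The other nuclear receptors gave 1 call in all. Of 20 tested, limma called 0 in walked against unloaded pools (0 higher and 2 lower at an unadjusted p under 0.05), with log2 fold changes between -0.54 and 1.05. It also called 0 in unloaded against control pools (2 higher and 2 lower unadjusted), between -0.71 and 0.93. Over all 3154 genes, 74 were called higher and 55 lower in the first of these comparisons, and 117 and 79 in the second. In walked against control pools the counts were 118 and 146. At such shares few calls are to be seen among 20 genes, so the low count does not set this list apart. The RXR partners, named for their role, had 0.49 (Rxra), 0.11 (Rxrb) and 0.10 (Rxrg) in walked against unloaded pools, and -0.69, -0.36 and 0.05 in unloaded against control pools. The orphan receptor Nr2f6 was lower in walked than in control pools (-0.88 ± 0.18, limma adjusted p = 0.0135), a call that was lost without walked pool 1.

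The list of glucose and fatty acid use includes genes known from mouse muscle to depend on NR4A receptors. Over all 3154 genes, 74 were called higher and 55 lower in walked against unloaded pools. Of the 20 tested genes of the list, 1 rose and 2 fell there, with a median of -0.24 and 4 of 20 above 0. These list counts carry no test of the list. The rise was in the hexokinase Hk2 (1.19 ± 0.23), lost without unloaded pool 3 or walked pool 2. Hk2 was also called higher on D26393exon_s_at (3.17, limma adjusted p = 0.00269). The falls were in the mitochondrial uncoupling protein Ucp3 (-2.003 ± 0.23), on both of its probe sets, and the adiponectin receptor Adipor2 (-1.05 ± 0.16), with -0.22 and no call on its other probe set. The muscle glucose transporter Slc2a4 had 0.03, the glycogen phosphorylase Pygm 0.22, phosphofructokinase Pfkm -0.29 and the fatty acid transporter Cd36 -0.23, and none of these was called.

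Over all 3154 genes, 117 were called higher and 79 lower in unloaded against control pools. There 5 of the 20 listed genes rose and 0 fell (limma, with 0 lower unadjusted), with a median of 0.14. They were the fatty acid binding protein Fabp4 (1.52), which also stands on the adipocyte marker list, Ucp3 (1.08), Adipor2 (0.62), Cd36 (2.61) and the pyruvate dehydrogenase kinase Pdk4 (0.57). The other Adipor2 probe set had -0.0072 (limma adjusted p = 0.987). Fabp4 and Ucp3 kept the call in every fit without 1 array. Adipor2 lost it without control pool 1 or any unloaded pool, Cd36 without any unloaded pool or walked pool 1, and Pdk4 without any array but control pool 2. The size for Cd36 was between 1.58 and 3.15 in those fits. In walked against control pools the list held 1 rise, Hk2 (0.83), which was lost without any 1 array. It also held 1 fall, Ucp3 (-0.93), lost without control pool 2 or walked pool 2. Over all 3154 genes, 118 were called higher and 146 lower there. On probe sets that did not stand for their gene, Cd36 (2.00) and Hk2 (1.93) were also called higher there. Cav3 (-0.65) and Ucp3 (-0.75) were called lower on such probe sets.

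**Figure D3:**
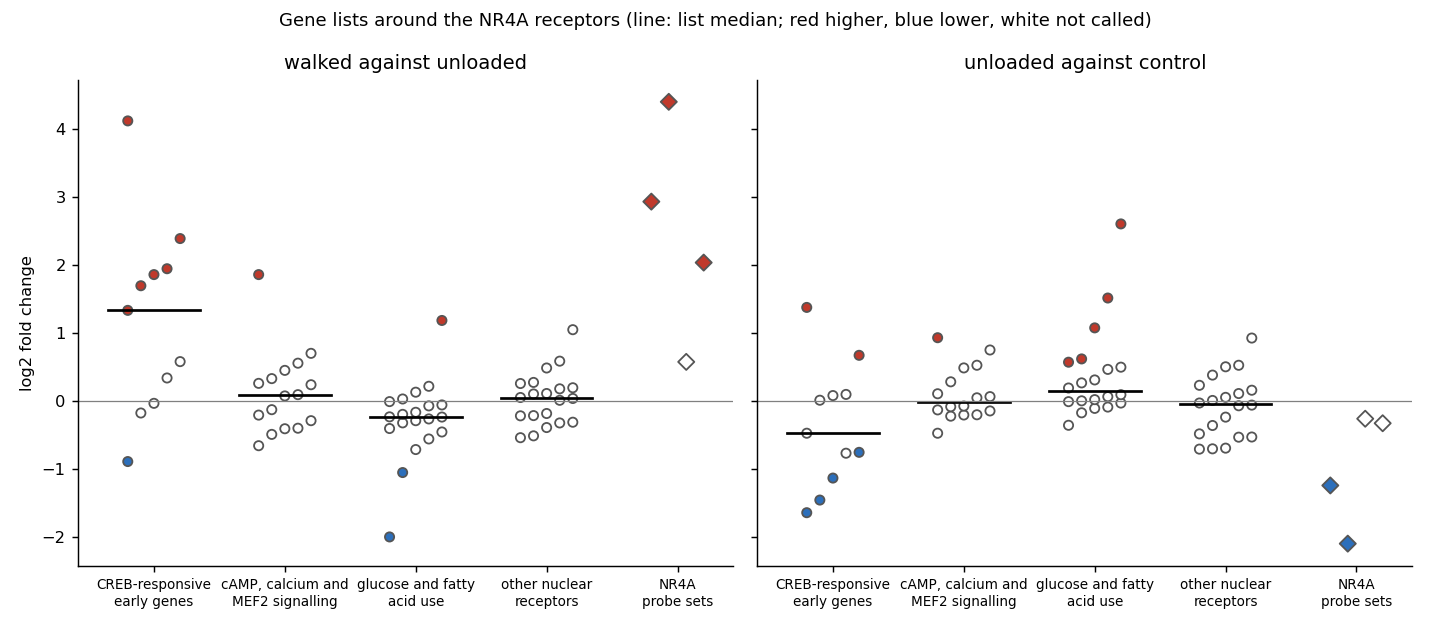
Log2 fold change (y axis) of the tested genes of 4 lists, 1 point a gene, and of 4 tested NR4A probe sets, leaving aside rc_AI176710_at (diamonds), for walked against unloaded pools on the left and unloaded against control pools on the right; lines are list medians, red points were called higher, blue points lower and white points were not called. The CREB-responsive early genes have a median of 1.33 on the left and -0.48 on the right. Other nuclear receptors hold no called point in either panel, where few would be called among 20 genes at the share over all genes.

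The genes whose profile lay nearest to each tested NR4A probe set were found by the root-mean-square distance between log2 signals over the 8 arrays, each centred on its own mean, among 3151 genes with 1 probe set each. The arrays fall into 3 groups, so a small distance mostly reflects a like set of group means. For U17254_g_at of Nr4a1 the 5 nearest were Atf3 at a distance of 0.39, the inducible heat shock protein Hspa1a (0.52), which has a near-identical neighbouring copy, the muscle ankyrin repeat protein Ankrd1 (0.64), the scaffold protein Dlgap4 (0.68), dim in unloaded pools at a mean of 8.13, and the small GTP-binding protein Rrad (0.79), against a median of 1.79 over all genes. Atf3 averaged 1415 in walked and 81.2 in unloaded pools, against 225.5 in control pools. Rrad, at 1803 in walked and 127 in unloaded pools, against 1191 in control pools, shared the fall and the rise but was nearer to control pools after walking.

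For U17254_at the nearest were the glucose transporter Slc2a1 (0.38), the transcription factor Klf4 (0.40), the cochaperone Dnajb5 (0.44), the chemokine Ccl2 (0.46) and Dlgap4 (0.48), against a median of 1.24. For X86003_at of Nr4a3 they were Socs3, the suppressor of cytokine signalling, at 0.16, then Klf4 (0.35), the adhesion receptor Pvr (0.40), the heparan sulphate proteoglycan Sdc4 (0.41) and Rnase1 (0.45), against a median of 1.03. Socs3 averaged 61.2 in walked and 17.6 in unloaded pools, against 19.9 in control pools. Socs3 was picked for its nearness to X86003_at, so its like pattern is a description and not support. Socs3, Pvr and Rnase1, and Dlgap4 for Nr4a1, passed the filter only through their walked arrays.

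For rc_AI176710_at even the nearest genes were far, with Atf3 at 1.59, Ankrd1 at 1.93, the growth factor Hbegf at 1.98, Hspa1a at 2.03 and Klf4 at 2.14, against a median of 3.11. Hbegf too passed the filter only through its walked arrays. For U01146_s_at of Nr4a2 the 5 nearest, Cyth2, Ing4, Opn1sw, Naa20 and Dnajb1, lay at 0.17 to 0.20, against a median of 0.47, and a flat profile is near to many others. Klf4 was among the 5 nearest genes both for U17254_at of Nr4a1 and for X86003_at of Nr4a3.

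**Figure D4:**
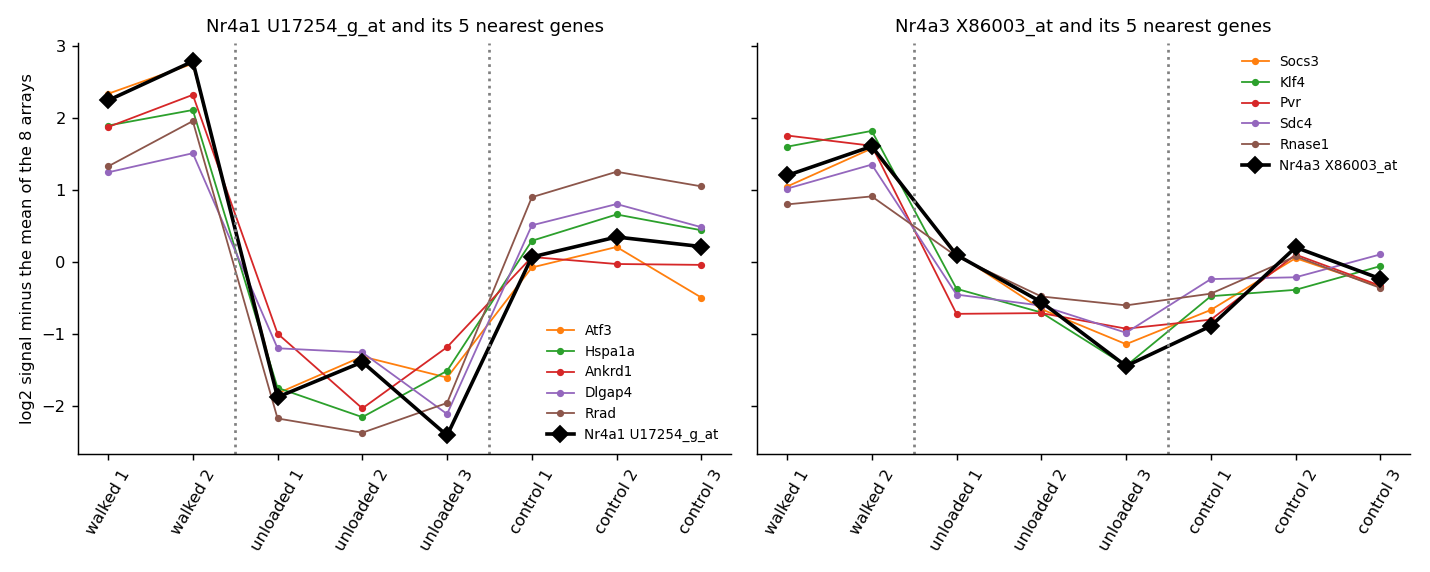
Log2 signal minus its mean over the 8 arrays (y axis) for U17254_g_at of Nr4a1 (left, black) and X86003_at of Nr4a3 (right, black) with the 5 nearest genes of each, by array (x axis); lines join arrays only to guide the eye. On the left all 6 profiles are lowest on the unloaded arrays, and on the right the walked arrays stand above the other 6. Dlgap4 on the left and Socs3, Pvr and Rnase1 on the right passed the filter only through their walked arrays.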

How the data were processed

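The authors deposited 1 signal intensity (linear scale) per probe set and array. The submitters' processing notes name MAS5, without a version or scaling target, and no detection calls were used here. Each of the 8 arrays received cRNA from 10 microg of pooled RNA, per the labels. Arrays were scaled to one 2% trimmed mean (148.6; factors 0.999 to 1.002), floored at the 10th percentile (4.10) and put on the log2 scale. Signals in the text are as deposited. Probe sets under the 40th percentile of mean signal (25.8) were left out, leaving 5244 of 8740. limma 3.58.1 in R 4.3.3 (lmFit, contrasts.fit, eBayes with a trend, two-sided) was fitted to all arrays with 5 residual and 6.00 prior degrees of freedom, and tested on simulated data. Intervals are 95%.

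Symbols came from the platform annotation: 7006 probe sets had 1 symbol, 308 several and 1426 are unnamed here. A gene in a list is represented by its probe set of highest mean log2 signal. Text names every NR4A probe set, up to 6 called members a list and comparison by smallest p, a few uncalled members for their role, and the 5 nearest profiles. The members and lists were chosen with earlier results of these data known. Pool numbers were not used as pairs in the main fit. Deviations from group means of same-numbered arrays correlated at -0.07 to 0.05. Such deviations are bound to cancel within each small group, so these values cannot show whether the pools were paired. The number of arrays limits the precision. Alternatives were other scalings, floors, filters and variance models, fits of 2 groups, pool number as a block, and each array left out. Promoters were searched with Python 3.11.15.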

Additional observations from a re-analysis of the deposited data

How the results depend on the processing

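Over the alternatives, U17254_g_at of Nr4a1 kept its direction and its call in all 3 comparisons, between 4.13 and 4.68 in walked against unloaded, -2.35 and -1.84 in unloaded against control, and 2.03 and 2.58 in walked against control. rc_AI176710_at of Nr4a3, which passed the filter only through its walked arrays, is left out of the counts of NR4A probe sets. The probe sets called in walked against unloaded pools numbered 120 to 263 without 1 array, against 220. Those in unloaded against control pools numbered 230 to 404 without 1 array, against 383, and 228 with no filter and 243 without a trend. Those in walked against control pools numbered 105 to 503 without 1 array, against 476, and 216 with no filter, 211 without a trend and 251 with the pool number as a replicate block. Of the other 4 tested NR4A probe sets, those called higher numbered 2 to 3 in walked against unloaded and 1 to 3 in walked against control without 1 array, and 1 in walked against control with no filter, against 3 in both. Those called lower in unloaded against control numbered 1 to 2 without 1 array, and 1 with no filter and 1 without a trend, against 2. U17254_at lost its fall with no filter (limma adjusted p = 0.124) and without a trend (0.0668), and its rise over control pools with no filter (0.0675). X86003_at lost its rise over unloaded pools with no filter (0.141), without a trend (0.0666) and with the replicate block (0.0565), and over control pools with the same 3 settings (0.144, 0.0806 and 0.0785). The cause of these losses was not tested. Signs turned only for values that were not called: U01146_s_at lay between -0.049 (without walked pool 2) and 0.68 (without walked pool 1) in walked against control, and X86003_at between -0.69 (without unloaded pool 1) and 0.077 (without unloaded pool 3) in unloaded against control. Of 480 counts of list members under alternatives, 412 stayed within 1.5 times. Counts of 0 that stayed 0 are among the 412, so this share overstates how stable the lists were. Signals near the floor limit what can be said of rc_AI145834_at and L08595_at.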
